A study of Homo sapiens with 12 samples.

Results

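The BMP and TGF-beta immediate targets are 10 genes, ID1, ID2, ID3, ID4, SMAD6, SMAD7, BAMBI, SKIL, TGIF1 and HAMP, out of 26364 genes counted by RNA-seq. They were looked up by symbol and grouped because of their place in the pathway and because SMAD7 and ID2 had higher values at the early times of these same libraries, so the members were chosen by the values at 5, 10 and 30 min against 0 min. Those early values are therefore given below as a description, without a test. All 10 were found in the count table. Of these, 9, all but HAMP, passed the filter on low counts and entered the test of 13852 genes.

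BMP and TGF-beta ligands bind pairs of receptor kinases at the cell surface, which phosphorylate the signal-carrying SMAD proteins. These join SMAD4, enter the nucleus and switch on a small set of genes within minutes, among them the ID genes, which encode dimer partners that keep E proteins off DNA. Several of the first targets close the loop on the pathway: SMAD6 and SMAD7 block the receptors, BAMBI is a decoy receptor, and SKIL and TGIF1 repress SMAD-driven transcription. In the liver the BMP branch also drives HAMP, which encodes hepcidin, the hormone that holds back iron.

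The RNA came from HepG2, a human hepatocellular carcinoma line and a single line throughout, at 0, 5, 10, 30 and 240 min after insulin stimulation, with 2 libraries at each time. The titles give the times, while the treatment label of every RNA library, 0 min included, reads 3 nM insulin for 5 min after a period in EMEM alone, so the times were taken from the titles. No inhibitor, gene deletion or added BMP or TGF-beta ligand is named for any group, and by the titles the 0 min cells are the unstimulated ones. A further library, of 1 replicate, comes from chromatin bound by the insulin receptor (IR), by ChIP-seq, in HepG2 cells kept in insulin and BSA, washed and stimulated with 3 nM insulin.

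The libraries held between 18347109 and 45005769 reads on genes, the deepest being 0 min replicate 2, and added ERCC spike-in RNA took between 1.59% and 2.36% of the reads. All 10 hepatocyte markers examined were above 1 TPM in every library, and markers of other cell types were mixed. PTPRC of leukocytes, COL1A2 and DCN of stellate cells and KDR of endothelium were at 0 in every library, while CD68 of leukocytes lay between 48.7 and 60.3 TPM, ACTA2 of stellate cells between 60.4 and 95.8 TPM and PECAM1 of endothelium between 0.958 and 1.72 TPM. The summed leukocyte list, nearly all LYZ, lay between 9695 and 10541 TPM at 0 min and between 8036 and 8446 TPM at 240 min, and its part in the results was not tested. Values below are CPM, read counts scaled to a common library size by TMM, unless TPM, which are also per length of transcript, are named. Fewer cells of a kind and less RNA per cell cannot be told apart in such bulk samples.

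The promoters of the members that stood out at the early times are shown here because the letters that SMAD proteins can bind, and a TATA box, can be read in them directly. The RefSeq windows (GRCh38.p14) of all 10 members were found, 18 in all because SMAD7 and TGIF1 have several starts. Each window held 250 bases before the start and 50 bases from it on, and the 250 bases before the start are printed, 5′ to 3′ on the strand of the gene, with the coordinates of the whole window. Capitals mark CAGAC, a SMAD box, and the TATA box motif TATAAA, each read on either strand, with matches of the latter on both strands overlapping in ID1.
SMAD7 (its most upstream start, minus strand of chr18:48950916-48951215): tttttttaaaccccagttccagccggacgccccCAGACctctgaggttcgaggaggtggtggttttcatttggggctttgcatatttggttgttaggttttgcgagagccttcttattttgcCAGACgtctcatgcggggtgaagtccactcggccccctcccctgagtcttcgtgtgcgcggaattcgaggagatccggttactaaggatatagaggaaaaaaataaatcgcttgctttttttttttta
ID2 (plus strand of chr2:8681806-8682105): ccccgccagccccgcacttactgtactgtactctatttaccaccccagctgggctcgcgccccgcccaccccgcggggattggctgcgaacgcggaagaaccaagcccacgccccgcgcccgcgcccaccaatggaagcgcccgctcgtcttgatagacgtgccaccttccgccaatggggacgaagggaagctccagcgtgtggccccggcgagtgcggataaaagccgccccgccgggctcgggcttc
ID1 (plus strand of chr20:31605039-31605338): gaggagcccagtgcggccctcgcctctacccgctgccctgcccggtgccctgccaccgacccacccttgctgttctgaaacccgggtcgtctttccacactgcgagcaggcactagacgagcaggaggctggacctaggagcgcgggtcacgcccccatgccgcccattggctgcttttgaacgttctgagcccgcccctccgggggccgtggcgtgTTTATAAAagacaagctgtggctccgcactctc
The SMAD7 window held CAGAC 2 times, with first bases at -217 and -128 from the start. Neither ID window held it, and ID1 alone of the 3 held TATAAA. The SMAD box was in at least 1 window of 7 members, BAMBI, HAMP, ID3, ID4, SKIL, SMAD7 and TGIF1, which makes 12 of the members' 18 windows, and in 45.3% of all 35116 windows. Several of the windows with it belong to TGIF1, whose windows from 3449318 and 3449457 overlap and hold the same CAGAC. Windows of the same gene are not independent, and no excess is read from these counts. The GC-rich BMP element GGCGCC was in 3 of the 18, those of BAMBI, HAMP and SKIL, and in 19.2% of all windows. TATAAA was in 4 of the 18, of ID1, ID4, SMAD7 and TGIF1, and in 11.5% of all.

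The longer palindrome GTCTAGAC, a strong SMAD box, was in 71 of the 35116 windows, 0.202%, and in 1 of the members' 18, that of SMAD6, where its first base lay at -12 from the start. The window is printed because this match is rare, with the palindrome in capitals. These matches are descriptions of letters, searched on both strands, and GTCTAGAC does not overlap CAGAC. The SMAD7 windows left out the bases directly before its start as counted, 46477081 on the minus strand in hg19. The motifs were not sought there.
SMAD6 (plus strand of chr15:66701986-66702285): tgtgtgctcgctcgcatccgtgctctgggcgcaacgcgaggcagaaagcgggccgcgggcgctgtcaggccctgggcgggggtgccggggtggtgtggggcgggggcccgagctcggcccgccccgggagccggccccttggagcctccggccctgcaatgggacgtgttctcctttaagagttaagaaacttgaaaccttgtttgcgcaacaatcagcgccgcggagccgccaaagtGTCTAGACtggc

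Per length, the 10 members covered a wide range of levels. At 0 min TGIF1 stood at 99.7 TPM ± 3.35 (SD, n = 2), followed by ID2 at 66.9 ± 1.96, ID1 at 48.7 ± 8.85, BAMBI at 27.9 ± 3.11 and ID3 at 26.9 ± 0.745. SKIL stood at 7.32 TPM ± 0.0843, SMAD7 at 5.78 ± 0.241, SMAD6 at 4.48 ± 0.0266 and ID4 at 0.486 ± 0.0242, with HAMP listed at 0 in all 10 libraries. BAMBI and ID3 were the neighbours in this order whose 2 libraries overlapped. At 30 min SMAD7 stood at 11.8 TPM ± 1.77, above SKIL at 8.81 ± 0.478, while ID2 at 98.5 ± 10.1 and TGIF1 at 97.5 ± 4.76 overlapped.

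SMAD7 (chr18:46446223-46477081 on the minus strand, hg19), the inhibitory SMAD that carries ubiquitin ligases to the TGF-beta receptors, had higher values from the first times on, which was part of why the group was chosen. Its 0 min libraries stood at 7.15 and 7.43 CPM, those of 5 min at 9.18 and 7.99, of 10 min at 11.1 and 11.6, of 30 min at 12.5 and 13.1 and of 240 min at 10.3 and 11.2. Both libraries of every later time lay above both 0 min libraries, and the 10, 30 and 240 min libraries lay above those of 5 min. The fitted log2 difference from 0 min came to 0.24 at 5 min (SE 0.11), 0.63 at 10 min (SE 0.10) and 0.80, or 1.74-fold, by 30 min (SE 0.10). The 240 min tests that follow use the 0 and 5 min libraries by which SMAD7 was chosen, so their p-values are not independent of that choice. At 240 min the level was 1.46-fold that at 0 min, a rise that passed the test (log2 0.55, SE 0.11, edgeR quasi-likelihood test, adjusted p = 0.000427), and 1.24-fold that at 5 min (adjusted p = 0.0308). The second of these did not pass with DESeq2 (adjusted p = 0.117), nor without 5 min replicate 2 (0.213) or 240 min replicate 2 (0.158).

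ID2 (chr2:8822113-8824583, plus strand, hg19), which encodes an ID protein that binds E proteins, followed the same course at a higher level. Its 0 min libraries stood at 32.8 and 33.9 CPM, those of 5 min at 39.0 and 34.1, of 10 min at 44.2 and 47.0, of 30 min at 45.6 and 51.2 and of 240 min at 41.3 and 51.4. Both libraries of each later time were above both 0 min libraries, by a narrow margin at 5 min, and the 240 min pair was the most widely spread. The log2 difference from 0 min was 0.45 (SE 0.087) at 10 min and 0.53 (SE 0.087), or 1.44-fold, at 30 min. As for SMAD7, the 0 and 5 min libraries were among those that chose the gene, so its 240 min p-values are not independent of that choice. ID2 rose at 240 min to 1.38-fold the 0 min level (log2 0.46, SE 0.088, edgeR adjusted p = 0.000340) and 1.26-fold the 5 min level (adjusted p = 0.00687). Without 240 min replicate 2 the second difference was 0.17 on the log2 scale (adjusted p = 0.169), and without 5 min replicate 2 it was 0.24 (adjusted p = 0.0955).

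ID1, ID3 and ID4, the other ID genes, had both libraries above 0 min at 30 min and not at 240 min. ID1 (chr20:30193086-30194317, plus strand), the classical BMP target, stood in its 0 min libraries at 18.5 and 22.7 CPM, in those of 5 min at 20.4 and 18.8, of 10 min at 28.9 and 28.0, of 30 min at 30.2 and 30.4 and of 240 min at 17.9 and 22.1. The 10 and 30 min libraries lay above all the others, and those of 240 min overlapped those of 0 min. Its log2 difference from 0 min was 0.44 (SE 0.094) at 10 min, 0.53 (SE 0.094) at 30 min and -0.074 (SE 0.10, edgeR adjusted p = 0.587) at 240 min. From 30 to 240 min the difference between the mean log2 CPM of the libraries, taken outside the fit, was -0.59, which was not tested.

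ID3 (chr1:23884421-23886285, minus strand), a further BMP-responsive ID gene, stood in its 0 min libraries at 13.4 and 13.7 CPM, in those of 5 min at 13.5 and 10.3, of 10 min at 15.8 and 15.9, of 30 min at 17.3 and 16.6 and of 240 min at 11.7 and 16.8. The 10 and 30 min libraries were above those of 0 min, and the 240 min libraries fell on either side of them. ID4 (chr6:19837601-19842431, plus strand), the least abundant of the ID genes here, rested on only 15 to 43 reads per library. Its 0 min libraries stood at 0.742 and 0.786 CPM, those of 5 min at 0.950 and 0.766, of 10 min at 1.34 and 0.639, of 30 min at 1.54 and 1.36 and of 240 min at 0.640 and 0.841. Its fitted log2 difference at 30 min, 0.92, came with an SE of 0.30, and the 30 min pair was the only one with both libraries above both 0 min libraries. At 240 min against 0 min neither passed the test (ID3 log2 0.048, SE 0.13, adjusted p = 0.802, and ID4 -0.080, SE 0.36, adjusted p = 0.880).

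**Figure D1:**
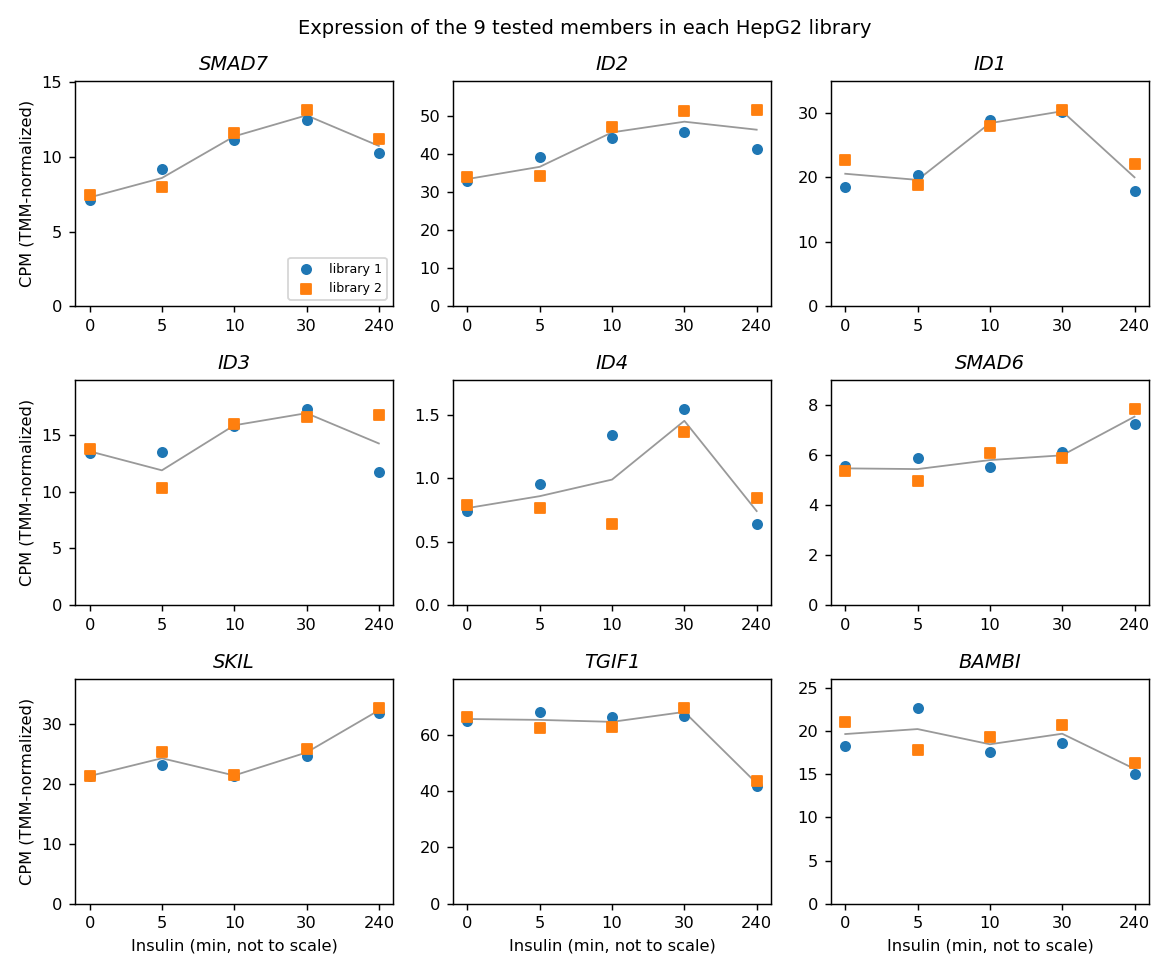
CPM of each of the 9 tested members (vertical axis, starting at 0) at the 5 times (horizontal axis in min, not to scale), with a point for each library and a line through the means of the 2. SMAD7 and ID2 stay high at 240 min, ID1 is back among its 0 min values, SMAD6 and SKIL reach their highest values at 240 min, and TGIF1 and BAMBI their lowest.

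The other inhibitory SMAD, SMAD6 (chr15:66994674-67074337, plus strand), which acts mainly on the BMP receptors, moved late. The libraries of 0 min stood at 5.57 and 5.37 CPM, those of 5 min at 5.90 and 4.98, of 10 min at 5.51 and 6.09, of 30 min at 6.10 and 5.88 and of 240 min at 7.24 and 7.83. Only the 240 min libraries lay above those of all other times. SMAD6 rose at 240 min to 1.38-fold its 0 min level (log2 0.46, SE 0.12, edgeR adjusted p = 0.00575) and 1.37-fold its 5 min level (adjusted p = 0.00933). Without 0 min replicate 2, the deepest library, the first adjusted p was 0.0666, and the second was 0.0536 with DESeq2, 0.0967 without 5 min replicate 2 and 0.0590 without 240 min replicate 2.

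SKIL (chr3:170075473-170114637, plus strand), which encodes SnoN, a corepressor that holds SMAD complexes silent, rose in the same late window. In the 0 min libraries it stood at 21.3 and 21.4 CPM, in those of 5 min at 23.2 and 25.4, of 10 min at 21.3 and 21.6, of 30 min at 24.7 and 25.8 and of 240 min at 31.9 and 32.7. The 2 replicates were close at every time, and 10 min was level with 0 min between the higher values of 5 and 30 min. At 240 min SKIL was 1.51-fold the 0 min level (log2 0.60, SE 0.070, edgeR adjusted p = 1.58e-06) and 1.33-fold the 5 min level (adjusted p = 0.000127).

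TGIF1 (chr18:3411925-3458406, plus strand), a homeodomain corepressor of SMAD targets, was flat up to 30 min and lower at 240 min. Its 0 min libraries stood at 64.8 and 66.3 CPM, those of 5 min at 67.9 and 62.5, of 10 min at 66.3 and 62.7, of 30 min at 66.6 and 69.5 and of 240 min at 41.9 and 43.5. The 240 min pair lay below every other library. TGIF1 fell by 35.0% against 0 min (log2 -0.62, SE 0.059, edgeR adjusted p = 1.19e-07) and fell by 34.7% against 5 min (adjusted p = 1.59e-07).

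BAMBI (chr10:28966424-28971868, plus strand), the decoy receptor that lacks a kinase, moved the same way by less. Its 0 min libraries stood at 18.2 and 21.1 CPM, those of 5 min at 22.6 and 17.8, of 10 min at 17.6 and 19.3, of 30 min at 18.6 and 20.7 and of 240 min at 15.0 and 16.2. The 240 min libraries were the lowest, and the 0 and 5 min pairs were spread. It fell by 21.7% against 0 min (log2 -0.35, SE 0.11, edgeR adjusted p = 0.0139) and fell by 23.5% against 5 min (adjusted p = 0.0101). Neither call held with limma on TPM (adjusted p = 0.151 and 0.0969), and the first was lost without 0 min replicate 2 (0.231) or 240 min replicate 1 (0.122), the second without 5 min replicate 1 (0.257) or 240 min replicate 1 (0.0926).

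HAMP (chr19:35773410-35776045, plus strand), the hepcidin gene, was near the limit of detection in these HepG2 cells. The 0 min libraries held 1 and 4 of its reads, those of 5 min 0 and 0, of 10 min 2 and 2, of 30 min 0 and 3 and of 240 min 3 and 0, which makes 15 in all. A count of 0 allows up to 3 reads, or 0.119 and 0.144 CPM in the 5 min libraries, counting error only. No change of HAMP was detectable at this depth, and no fold is given.

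Counted together, 3 of the 9 tested members had both libraries above both 0 min libraries at 5 min (SMAD7, SKIL and ID2), where 24.5% of all tested genes did. At 10 min they were 4 (SMAD7 and ID1 to ID3), beside 18% of all genes, and at 30 min 8, all but BAMBI, beside 18.5%. Nothing is read from these early counts, since the same contrasts chose the members. With ERCC scaling, which lowers the median of all genes by 0.33 on the log2 scale at 10 min, the members with both libraries above were 1 at 5 min, 1 at 10 min and 6 at 30 min. The share of all genes on that scale was not counted. Before the shift of the median is taken off, the 10 min values turn to -0.10 for ID3, -0.25 for SMAD6 and -0.32 for SKIL, while SMAD7 is at 0.31, ID1 at 0.14 and ID2 at 0.12. ERCC took 2.36% of the reads of 10 min replicate 2 and 1.73% of replicate 1, beside 1.59% in each 0 min library. The 10 min shift therefore leans most on replicate 2.

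At 240 min against 0 min, 6 of the 9 tested members passed the edgeR threshold, an adjusted p under 0.05. SMAD7, ID2, SMAD6 and SKIL were higher, where 20.6% of all tested genes were, and TGIF1 and BAMBI were lower, where 20.4% were. The same 6 genes passed in the same directions against 5 min, where 19.7% of all genes were higher and 18.4% lower. The 9 members' median log2 difference was 0.048 against 0 min and 0.23 against 5 min, beside -0.0026 and 0.015 over all tested genes. The 2 comparisons share the 240 min libraries, and each uses 0 or 5 min libraries that the early contrasts also used. The calls of SMAD7 and ID2, whose early values were part of why the group was chosen, are therefore not independent of that choice. With scaling to the ERCC spike-ins, which lowers the median of all genes at 240 min by 0.12 on the log2 scale, TGIF1 was the only member to pass. Of all 13852 tested genes, those that passed went from 5676 to 1059 against 0 min and from 5276 to 935 against 5 min. Relative to the ERCC-scaled median against 0 min, the members' log2 differences were 0.55 for SMAD7, 0.46 for ID2, 0.46 for SMAD6, 0.60 for SKIL, -0.62 for TGIF1 and -0.34 for BAMBI.

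**Figure D2:**
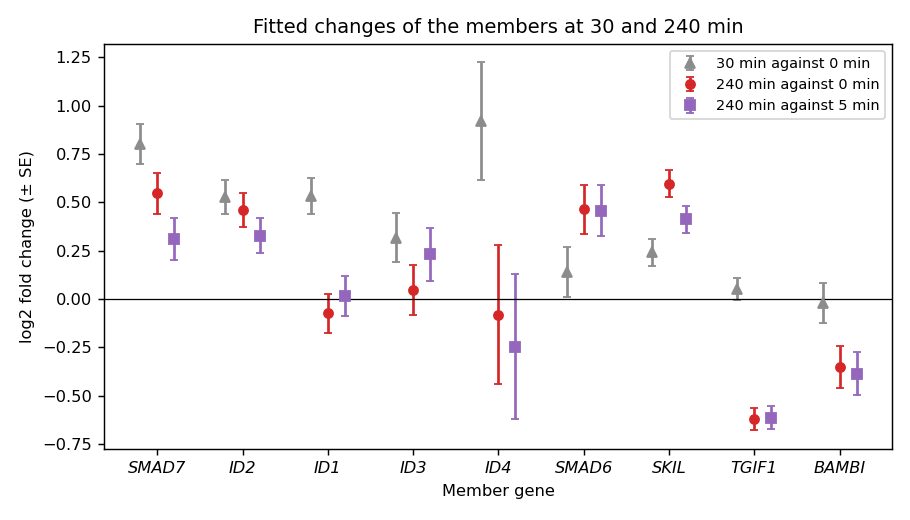
Fitted log2 fold changes (vertical axis) of the 9 tested members (horizontal axis) at 30 min and 240 min against 0 min and at 240 min against 5 min, with bars of ± 1 SE. The 30 min points are a description. At 240 min SMAD7, ID2, SMAD6 and SKIL lie above 0 and TGIF1 and BAMBI below in both comparisons, while the bars of ID1 and ID4 reach across 0.

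Over the 10 RNA libraries, the gene whose log2 CPM followed SMAD7 most closely among 10387 genes averaging 5 CPM or more was AMOTL2 (Pearson r = 0.956), and ID2 came next (0.952), then FAM217B (0.885), SERTAD2 (0.867) and H3F3B (0.864). For ID2 the order was SMAD7 (0.952), AMOTL2 (0.919), ABRACL (0.893), BLOC1S2 (0.881) and YIPF1 (0.860). AMOTL2, which encodes an angiomotin-like protein of cell junctions, had log2 differences from 0 min of 0.40 at 10 min, 0.51 at 30 min and 0.37 at 240 min. Within the members, ID1 and ID3 had r = 0.822, and TGIF1 had r = -0.850 with SKIL and -0.831 with SMAD6. These are descriptions over libraries that share their times and scaling. SMAD7 and ID2 were grouped because both were higher at the early times of these libraries, so their correlation with each other was in part fixed by that choice.

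The rest of the pathway was read from a list of 87 genes in 9 roles, of which 69 could be tested. At 240 min against 0 min, 20 were higher and 16 lower, where 20.6% and 20.4% of all tested genes were, with a median log2 difference of -0.028 beside -0.0026 over all genes. Against 5 min 16 were higher and 18 lower, where 19.7% and 18.4% of all genes were, with a median of -0.015 beside 0.015. With ERCC scaling these totals were 7 and 6, where 1059 and 935 of all 13852 tested genes passed. Among the 6 signal-carrying SMADs, SMAD1 and SMAD2 were higher at 240 min against 0 min (log2 0.36 and 0.21) and SMAD3, SMAD4 and SMAD9 lower (-0.40, -0.39 and -0.29), and all 5 passed in the same direction against 5 min. SMAD1 and SMAD9 carry the BMP signal, SMAD2 and SMAD3 that of TGF-beta, and SMAD4 is shared by both. SMAD5 did not pass (0.097, adjusted p = 0.119).

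Of 13 tested receptors and co-receptors, 4 were higher and 3 lower at 240 min against 0 min. Beside this and each count by role that follows, 20.6% of all tested genes were higher and 20.4% lower, and nothing particular to a role is read from such small counts. RGMB, a BMP co-receptor, was 1.56-fold its 0 min level of 15.2 CPM ± 1.04 (SD, n = 2; log2 0.64, edgeR adjusted p = 1.02e-05), and ACVR2B, an activin receptor, went from 83.6 CPM ± 2.84 to 51.3 ± 4.57 (log2 -0.70, adjusted p = 5.98e-08). Of 8 ligands, BMP8A passed (log2 1.29, SE 0.46, adjusted p = 0.0302), at under 1 CPM and with a near-identical neighbour, BMP8B, with which reads can be shared, so its value is uncertain. It did not pass without 0 min replicate 2 (0.354) or 240 min replicate 1 (0.247). Of 3 extracellular antagonists, CHRD, which traps BMPs, was lower (log2 -0.28, adjusted p = 0.00672), but not without 0 min replicate 2 (0.101) or with limma on TPM (0.0553).

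Of 8 ubiquitin ligases and deubiquitinases, 4 were higher and 1 lower. SMURF1, the ligase that marks BMP SMADs and that SMAD7 brings to receptors, had the largest difference (log2 0.33, SE 0.062, adjusted p = 0.000268). Of 9 repressors and nuclear cofactors, 3 were higher and 2 lower. CTDSPL, a phosphatase, went from 225 CPM to 158 (log2 -0.51, adjusted p = 1.40e-07). ZEB2, a SMAD-binding repressor, stood at 0.238 CPM at 0 min and 0.634 at 240 min (log2 1.18, SE 0.45, adjusted p = 0.0420), and that call was lost in fits without 1 library (adjusted p up to 0.285, without 240 min replicate 2).

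Of 17 other target genes, 6 were higher and 5 lower at 240 min against 0 min. THBS1, a matrix protein that can release TGF-beta from its latent form, went from 308 CPM ± 2.86 to 583 ± 19.7 (log2 0.92, SE 0.062, adjusted p = 1.93e-09). HES1, a Notch and BMP target, rose by 0.91 on the log2 scale, JUNB by 0.61, CYR61 by 0.61 and RUNX1 by 0.53, all of which passed in both comparisons. ATOH8, a transcription factor of the BMP and iron pathway, fell by 1.46 on the log2 scale to 0.496 CPM (adjusted p = 0.000952), which did not pass with limma on log2(TPM + 1) (0.107). TCF12, an E protein that ID proteins bind, fell by 0.55 on the log2 scale (adjusted p = 1.20e-07). None of the 3 tested genes of iron sensing, TMPRSS6, TFR2 and HFE, passed in either comparison.

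**Figure D3:**
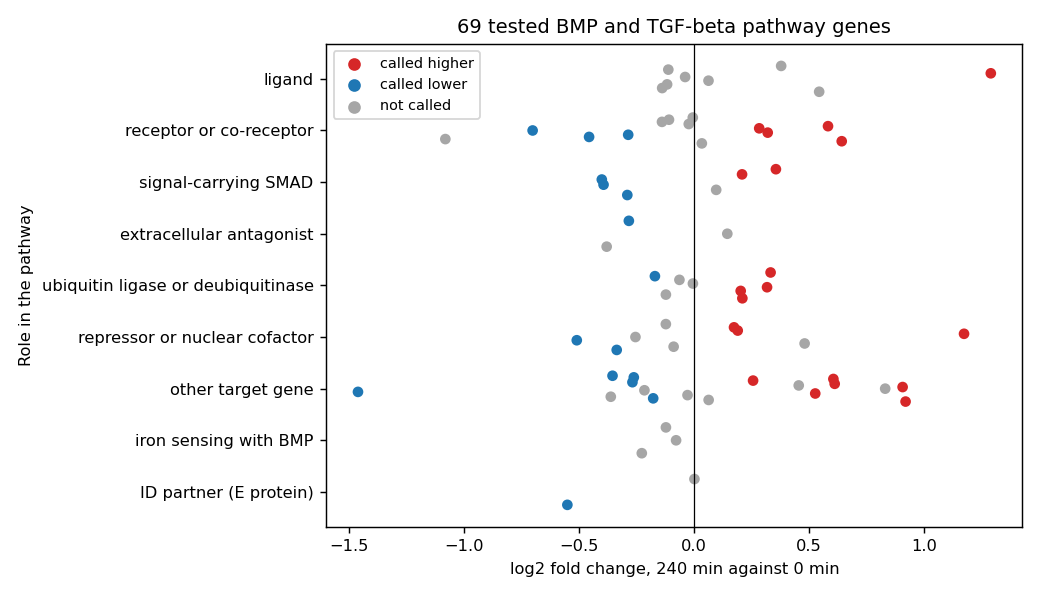
Log2 fold change at 240 min against 0 min (horizontal axis) of the 69 tested list genes, 1 point a gene, arranged by role (vertical axis) and coloured by the edgeR call. Genes called higher (20) and lower (16) are found on both sides within the receptors, the signal-carrying SMADs and the target genes.

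The IR ChIP-seq was read at the same genes because it was made in the same line by another assay. Its 1971 peaks had scores from 13 to 14106, with a median of 79. A peak lay within the gene body extended by 5 kb for 2 of the 10 members, SKIL and ID1, as for 15.7% of the tested genes, and for 15 of 86 genes of the pathway list. The SKIL peak (chr3:170074609-170075389, hg19, score 65, rank 1124) was annotated by HOMER as promoter-TSS and covered the most upstream of 8 GENCODE starts of SKIL, at 170075130. The ID1 peak (chr20:30196329-30196641, score 151, rank 621) lay 2012 bases past the end of the gene, where HOMER assigned it to MIR3193. The nearest peak to any start of SMAD7 lay 403575 bases away and that to ID2 56048 bases, and those of the other members without a peak lay from 34009 (HAMP) to 5809179 bases (TGIF1) away. With no second ChIP library, these positions have no replicate check.

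The 300 bases of the SKIL peak that end just before that start are printed because this is the peak at a member's promoter. They were read from GRCh37 (chr3:170074830-170075129, plus strand) and are 77.7% G or C. Capitals mark CAGAC, found 4 times over both strands, and the element GGCGCC, found 1 time.
SKIL: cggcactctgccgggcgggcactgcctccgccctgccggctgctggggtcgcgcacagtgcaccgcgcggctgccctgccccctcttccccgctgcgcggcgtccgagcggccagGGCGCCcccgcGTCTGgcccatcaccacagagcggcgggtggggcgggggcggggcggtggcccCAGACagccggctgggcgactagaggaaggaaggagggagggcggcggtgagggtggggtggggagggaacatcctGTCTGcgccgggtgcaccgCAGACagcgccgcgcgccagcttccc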

How the data were processed

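The authors trimmed the RNA-seq reads with Trim Galore (0.6.4), aligned them to hg19 with STAR (2.6.1d) and deposited raw counts per gene from featureCounts (1.6.4), counted by strand. The authors also deposited StringTie gene abundances in TPM, and for the IR ChIP-seq a peak table with the score of each peak from MACS2 (2.2.7.1), annotated by HOMER, for 1 library. From the counts, the 92 ERCC rows were set aside and the 10 libraries were fitted in 1 model with the quasi-likelihood test of edgeR (4.0.16) after TMM scaling and its default low-count filter, with Benjamini-Hochberg adjustment over 13852 genes. DESeq2 (1.42.0) and limma (3.58.1, on log2(TPM + 1)) were alternatives. The fit was checked on simulated counts. The members and lists were chosen with earlier results of these data known. In the pathway list the genes named were, in each role, the one with the largest change among those that passed at 240 min, and each one that passed in both 240 min comparisons with a log2 change of at least 0.5. The counts of the 2 libraries of each time differed by more than sampling noise (chi-square per degree of freedom 2.86 to 6.46). The labels do not say that the libraries came from separate cultures. The paper states that the RNA-seq was done 1 time, on biologically independent samples. The p-values measure the spread between these samples within that experiment, part of which may be technical. Peaks were compared with gene bodies extended by 5 kb, at least 1 base shared. Promoters are from RefSeq, and motifs were sought on both strands.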

Additional observations from a re-analysis of the deposited data

Results flagged for a closer look

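TGIF1 had a log2 fold change of 0.051 at 30 min against 0 min, with both libraries higher than both at 0 min, and of -0.62 at 240 min against 0 min, with both lower. It is given here because, in TMM-scaled CPM, the libraries of the 2 times lie on opposite sides of the same 0 min libraries. The 30 min side did not hold on 2 other scales: in TPM the 30 min libraries, at 97.5 ± 4.76 (SD, n = 2), overlap those of 0 min at 99.7 ± 3.35, and with ERCC scaling the 30 min log2 difference is -0.078. The difference between the 2 times was not tested.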

How the results depend on the processing

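With ERCC scaling in place of TMM, the members that passed at 240 min went from 6 to 1 against 0 min and from 6 to 1 against 5 min. The pathway genes went from 36 to 7 and from 34 to 6, and all tested genes that passed from 5676 to 1059 and from 5276 to 935. The members with both libraries above 0 min went from 3 to 1 (5 min) and 4 to 1 (10 min), with the share of all genes not counted on the ERCC scale. ERCC scaling shifted the median log2 difference of all genes by -0.083 at 5 min, -0.33 at 10 min, -0.13 at 30 min and -0.12 at 240 min. The 10 min shift leans most on replicate 2, with 2.36% of its reads on ERCC against 1.73% in replicate 1. Against 5 min, limma on TPM without a filter called 3 members, and 4310 of all 18379 genes. Leaving out 1 library of a time compared lowered the number of all tested genes that passed, so counts of members are not compared for those fits. Against 5 min the log2 differences without 5 min replicate 2 were 0.35 for SMAD6, 0.22 for SMAD7 and 0.24 for ID2. Without 240 min replicate 2 they were 0.40, 0.25 and 0.17, beside 0.46, 0.31 and 0.33 with all libraries. BAMBI stood at -0.19 without 5 min replicate 1, beside -0.39 with all libraries. Members with an IR peak were 1 with gene bodies extended by 1 kb, 1 with peaks scored above the median and 1 by HOMER's nearest gene. The share of all tested genes, 15.7% with the 5 kb extension, was not counted under these settings, so nothing about the members is read from them. With promoters cut to 100 bases before the start, CAGAC was in 2 members, or 4 of the members' 18 windows, and in 25.7% of all 35116 windows. GGCGCC was in 0 members and in 12.1% of all windows.

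Among the members and named pathway genes at 240 min, the sign turned only for ID1, ID3 and ID4, none of which passed the test at 240 min. At the early times, which were not tested, ERCC scaling turned the log2 difference from 0 min to -0.082 for SMAD6 and -0.039 for BAMBI at 5 min, to -0.25 for SMAD6, -0.32 for SKIL and -0.10 for ID3 at 10 min, and to -0.078 for TGIF1 at 30 min. For ID1 at 240 min against 0 min the log2 difference was 0.046 or 0.047 with limma on TPM, 0.10 without 0 min replicate 2, and between -0.23 and 0.10 over all fits without 1 library (0.0790 without 240 min replicate 1), and against 5 min it was -0.017 with ERCC scaling, -0.042 without 5 min replicate 2 and from -0.14 to 0.17 over the fits without a 240 min library. For ID3 it was -0.065 with ERCC scaling and -0.22 without 240 min replicate 2 (0.30 without replicate 1) against 0 min, and -0.032 without 240 min replicate 2 (0.48 without replicate 1) against 5 min. For ID4 against 0 min it was 0.12 without 240 min replicate 1 and -0.27 without replicate 2. The cause was not tested, other than that each such fit has fewer libraries or another scale.

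The shared replicate numbers do not pair the samples (correlations of deviations from -0.19 to 0.16). With the replicate block 6 members passed in each comparison, and 37 and 35 pathway genes, where 5845 and 5448 of all 13852 tested genes passed. Counting members with both libraries above both 0 min libraries in StringTie TPM, an alternative chosen after seeing the data, gave 3 at 5 min, 5 at 10 min and 7 at 30 min. The share of all genes in TPM was not counted. Nothing is read from these counts, since the same contrasts chose the members. With 2 libraries a time, the depth limits ID4 and HAMP most.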
